A study of Mus musculus with 10 samples.

Results

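The genes described here build the machinery of contraction: actins, conventional and unconventional myosins, myosin light chains, tropomyosins, troponins, calponins, transgelins, tropomodulins, myomesins and a few further cytoskeletal and sarcomeric proteins. They were chosen by gene symbol, without regard to their measured values. The array named 4605 genes, of which 41 carried such a symbol. They were read by 43 of its 5030 probes, since Actb had 3 probes. The probes fell into 17 striated muscle probes, 11 cytoplasmic and non-muscle probes, 8 probes for unconventional myosins and 7 smooth muscle probes.

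Contraction depends on myosin heads that pull on actin filaments at the cost of ATP. In striated muscle, calcium acts through the troponin complex, which moves tropomyosin along the filament, whereas in smooth muscle, calcium acts mainly through calmodulin and phosphorylation of the regulatory myosin light chain. The bladder wall holds a thick layer of smooth muscle, the detrusor, and its known smooth muscle genes include Acta2, Myh11, Tagln and Cnn1. Cytoplasmic actins and non-muscle myosins serve cell shape and movement in every cell, and unconventional myosins carry membranes and vesicles along actin.

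The question was how the bladder transcriptome responds over time to an inflammatory stimulus with and without proteinase-activated receptor 1 (PAR1), a receptor for thrombin. Whole bladders of female mice were instilled with Escherichia coli lipopolysaccharide (LPS, a bacterial cell wall component, 100 µg/ml), with the neuropeptide substance P (SP), or with saline, and were taken at 4 or 24 h. The 10 groups were PAR1-/- bladders after LPS at 4 h, LPS at 24 h, SP at 4 h, SP at 24 h and saline at 24 h, and wild type C57BL/6J (WT) bladders under the same 5 conditions. On the labels the SP dose was 20 µM for PAR1-/- mice and 10 µM for WT mice, whereas the methods of the study give the lower dose for both. Each group was 1 pool of RNA from 8 bladders, hybridized once as radiolabelled cDNA to a plastic cDNA array, so no group had a replicate. A challenge at 4 h could only be set against saline at 24 h.

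Values below are of 2 kinds. An intensity is the whole-number spot brightness recovered from the deposited scores, which was possible for 4900 of 5030 probes and for all 43 contractile ones. A normalized level is that intensity after the arrays were brought to 1 scale by robust linear regression. A spot was taken as above background when it exceeded the most frequent intensity of its array by 3 SD of the values below it. Where 1 of 2 spots compared was not above background it was set to the threshold of its array, and the ratio is then a bound. Where a pair of values after LPS or SP is given, the 4 h value comes first.

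The arrays differed in brightness. Summed intensity ranged between 149458 and 273798 on the 4 challenged PAR1-/- arrays, against 69025 on the PAR1-/- saline array. It ranged between 73225 and 237480 on the challenged WT arrays, against 71927 on the WT saline array. The WT array for LPS at 24 h held 1 intensity, 15, for 4257 of 4900 probes, among them 35 of the 43 contractile probes, and gave only 631 probes above background, against 1461 to 2726 on the other arrays. The transcript of the disrupted gene, F2r, was above background on 2 of 5 PAR1-/- arrays and on 1 of 5 WT arrays, and the sources used here do not state where its probe lies relative to the disrupted part, so it did not serve as a check of the genotypes.

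Of the 43 contractile probes, 8 were above background on all 10 arrays, 28 on some and 7 on none. The 8 were Acta2, Myom2, Tnni2, Tmod4, Myl2, Myo5a, Vim and 1 of the Actb probes. Cnn2, Tpm2, Tnnc1, Mybpc3, Tnni3, Mylpf and Myo1c were never above background. Per array, between 14 (PAR1-/- saline) and 31 (PAR1-/- SP at 4 h) of them were above background on the PAR1-/- arrays, and between 8 (LPS at 24 h) and 24 (SP at 4 h) on the WT arrays. The share was higher among the contractile probes than among all probes on each of the 10 arrays, with 72.1% of the contractile probes and 55.6% of all probes on the array with most, and 18.6% and 12.9% on the array with fewest.

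**Figure D1:**
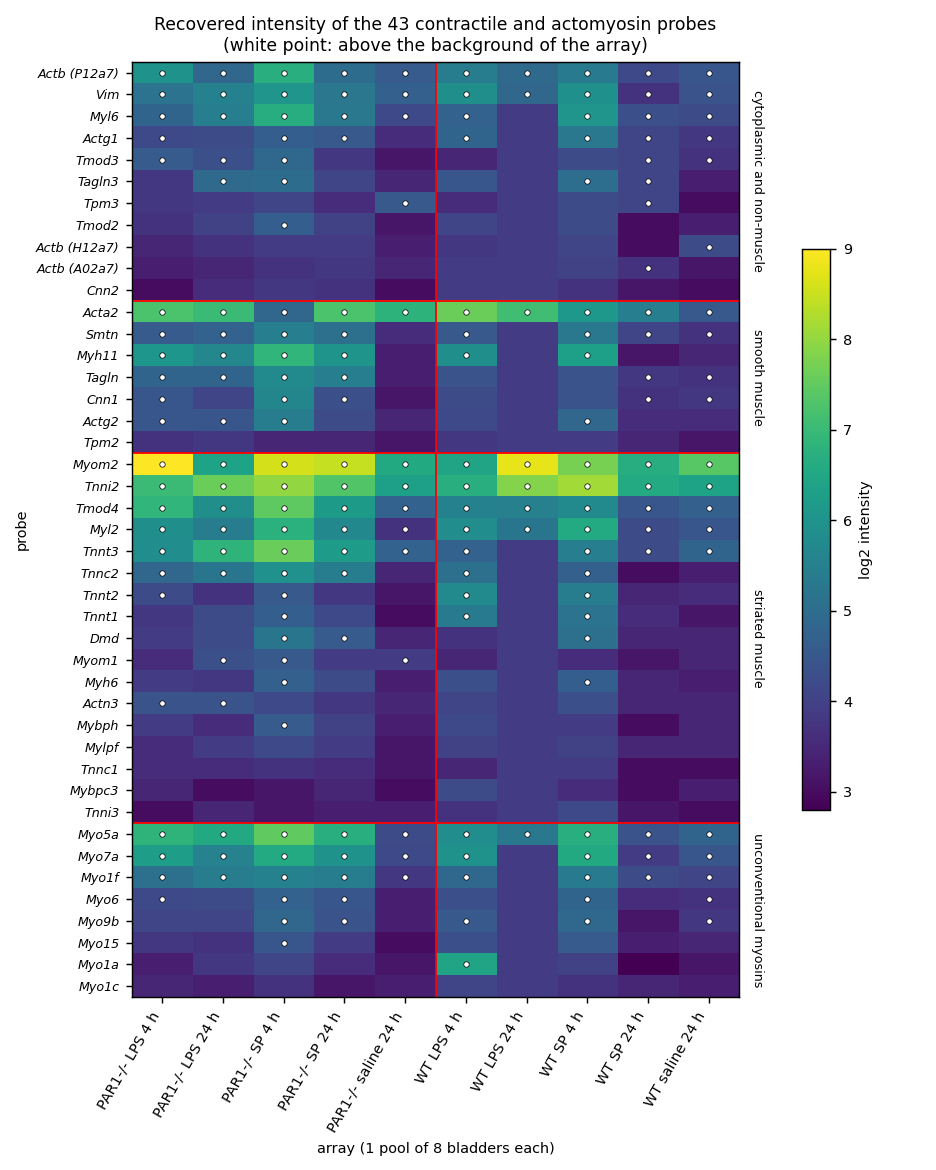
Recovered intensity (log2, colour) of the 43 contractile and actomyosin probes (rows, in 4 sub-lists) on the 10 arrays (columns, 1 pool each, PAR1-/- left and WT right). White points mark spots above the background of their array, and only 8 rows carry a point in every column.

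The labelled tissue was checked against its markers. Among the smooth muscle probes, Acta2 was above background on 10 arrays, Smtn on 8, Myh11 and Tagln on 6 each, Cnn1 on 5, Actg2 on 4 and Tpm2 on 0. The brightest contractile spots were instead those of Myom2, a protein of the sarcomeric M band, and Tnni2, the inhibitory troponin of fast skeletal muscle. Of 9 further skeletal muscle genes outside these families, 5 were above background on at least 1 array and 0 on all. These 5 were Pvalb on 5 arrays, Ckm and Casq1 on 3 each, and Myod1 and Chrna1 on 1 each. Myog, Mb, Myf6 and Atp2a1 were at background throughout. The summed intensity of the 9 genes, not normalized, was 98 to 216 on the challenged arrays and 86 to 98 on the saline arrays. Over all probes it was 73225 to 273798 and 69025 to 71927. Des, Myl9, Mylk, Cald1 and Tpm1, further smooth muscle genes, had no probe named for them alone and so were not analysed here. Among the urothelial markers, Cdh1 was above background on 10 arrays, Krt19 on 8, Upk2 on 4 and Krt18 on 2.

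Sequences upstream of 32 of the 41 genes were matched by symbol in RefSeq (GRCm38.p6, 250 bases before to 50 after the annotated start). Actb, Actg2, Actn3, Myh11, Myom2, Tagln, Tmod3, Tnni2 and Tnnt3 were not matched. The CArG box, a run of 6 A or T bases between CC and GG that reads the same in kind on both strands, is the known binding element of serum response factor, which drives many actin and smooth muscle genes. It was searched for because it is the element these families are best known to share. It occurred in 5 of the 32 genes and in 488 of 27025 genes overall (1.81%). With 78.0% of the genes matched, no share over the families was read from this. Acta2 held no such box in this window, but held a pair of boxes with 1 G or C within the A/T run, a form found in 2620 genes (9.69%). The stretches below show these boxes in capitals, 5′ to 3′ on the strand of the gene, all upstream of the annotated start used. For Acta2, Myl6, Myom1 and Dmd they lie within the RefSeq span of the gene, so the start used was not its outermost one. The Acta2 pair is shown because Acta2 held 7 of the 17 differences beyond 3-fold that follow, more than any other contractile gene, and the others because they are the family members with the box.
Acta2, chr19:34255433-34255472, minus strand: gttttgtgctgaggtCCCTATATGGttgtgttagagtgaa
Acta2, chr19:34255383-34255422, minus strand: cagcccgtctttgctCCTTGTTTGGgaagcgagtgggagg
Actg1, chr11:120348561-120348600, minus strand: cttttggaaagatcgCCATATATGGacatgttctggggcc
Myl6, chr10:128493035-128493074, minus strand: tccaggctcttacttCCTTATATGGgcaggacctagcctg
Cnn2, chr10:79988529-79988568, plus strand: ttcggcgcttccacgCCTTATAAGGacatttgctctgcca
Myom1, chr17:71019443-71019482, plus strand: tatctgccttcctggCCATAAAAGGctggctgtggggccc
Dmd, chrX:82948757-82948796, plus strand: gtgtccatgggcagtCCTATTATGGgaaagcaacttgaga

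The genes with the box showed no common pattern on the arrays. Cnn2 was never above background, Myom1 and Dmd were above it on 3 arrays each, Actg1 on 7 and Myl6 on 9. A match is a statement about letters in a window and not about binding.

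Acta2, which encodes the alpha actin of smooth muscle, was the contractile gene with the widest range of normalized level, taken as a fold. In PAR1-/- bladders its intensity was 152 and 131 after LPS, 29 and 151 after SP, and 112 after saline. In WT bladders it was 194 and 136 after LPS, 69 and 44 after SP, and 23 after saline. The PAR1-/- saline pool was thus well above the WT saline pool, and among the PAR1-/- arrays the one of SP at 4 h stood low.

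On the normalized scale, the level of Acta2 was 115 and 101 after LPS, 14.0 and 108 after SP and 363 after saline in PAR1-/- bladders. The WT levels were 188 and 164 with LPS, 37.7 and 95.9 with SP and 45.2 with saline. After normalization Acta2 was therefore lower than saline in each of the 4 challenged PAR1-/- pools, at 0.317-fold and 0.277-fold for LPS and 0.0386-fold and 0.297-fold for SP. In WT pools it was 4.15-fold and 3.63-fold higher than saline after LPS, and 0.834-fold and 2.12-fold after SP. All 8 ratios are of 1 array to 1 array and carry no test, and the 4 PAR1-/- ratios share a single saline array.

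The direction in PAR1-/- bladders depended on the scaling of the arrays. Without normalization, Acta2 stood at 1.36-fold and 1.17-fold of saline for LPS and at 1.35-fold for the 24 h SP pool, that is on the other side of 1, and only SP at 4 h stayed lower (0.259-fold). With a shift of each array or with quantile normalization, all 4 PAR1-/- ratios were below 1. Brightness rank needs no scaling: in PAR1-/- bladders 2.98% and 3.78% of the probes were brighter than Acta2 after LPS and 38.9% and 3.39% after SP, against 0.245% after saline. On the WT arrays the shares were 1.65% and 1.59% with LPS and 14.5% and 4.00% with SP, against 9.43% after saline.

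**Figure D2:**
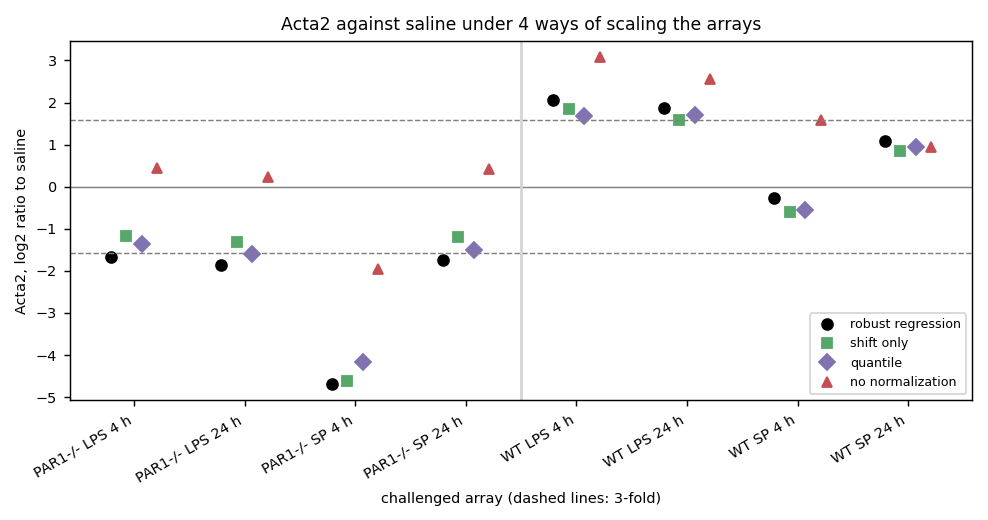
Log2 ratio of Acta2 to saline of the same genotype (vertical axis) on each challenged array (horizontal axis, PAR1-/- left and WT right) under 4 ways of scaling, 1 array per point and no error. The WT ratios after LPS lie above 0 under all 4, whereas 3 of the 4 PAR1-/- ratios lie above 0 only without normalization. The WT ratio for SP at 4 h also lies above 0 only without normalization.

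Myh11, the heavy chain of smooth muscle myosin, followed another pattern. It gave intensities of 67 and 51 after LPS and 117 and 64 after SP in PAR1-/- bladders, against 10 after saline. WT bladders gave 59 and 15 after LPS and 79 and 9 after SP, against 11 after saline. It was thus above background in all 4 challenged PAR1-/- pools and, in WT, at 4 h with either agent but at neither 24 h point, while both saline pools were at background. The WT spot of LPS at 24 h held the common value of its array, 15. After normalization the bounds were at least 2.40-fold and 1.95-fold for LPS and at least 2.07-fold and 2.18-fold for SP in PAR1-/- bladders, and at least 2.47-fold for LPS and 1.88-fold for SP at 4 h in WT bladders, so no normalized bound reached 3-fold. Without normalization every one of these bounds did, at 5.34-fold and 4.07-fold for LPS and 9.33-fold and 5.11-fold for SP in PAR1-/- bladders and at 4.60-fold for LPS and 6.16-fold for SP in WT bladders.

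The remaining smooth muscle genes were dimmer. Tagln, which encodes the actin-binding protein transgelin, measured 28 and 28 after LPS, 54 and 44 after SP and 10 after saline in PAR1-/- bladders. In WT bladders it measured 21 and 15 after LPS, 21 and 14 after SP and 13 after saline, so that it was above background in every challenged PAR1-/- pool and in WT only after SP at 24 h and saline, where it barely passed. After normalization the PAR1-/- bounds to saline were at least 1.09-fold and 1.17-fold for LPS and 1.05-fold and 1.56-fold for SP. In WT bladders Tagln was at most 0.900-fold and 0.681-fold for LPS. For SP there it was at most 0.661-fold at 4 h and stood at 1.07-fold at 24 h.

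Smtn (smoothelin, of contractile smooth muscle cells) gave 24 and 27 after LPS, 44 and 34 after SP and 12 after saline in PAR1-/- bladders, against 23 and 15, 39 and 17, and 13 in WT bladders under the same conditions. Cnn1 (calponin 1, an actin-binding regulator) gave 22 and 17 after LPS, 50 and 20 after SP and 9 after saline in PAR1-/- bladders, against 19 and 15, 21 and 13, and 14 in WT bladders. Actg2 (the gamma actin of visceral smooth muscle) gave 22 and 22 after LPS, 42 and 19 after SP and 11 after saline in PAR1-/- bladders, against 18 and 15, 29 and 12, and 12 in WT bladders. In PAR1-/- bladders the normalized level of Smtn was 20.2 to 28.5 after challenge and 21.7 after saline. That of Cnn1 was 17.4 to 22.6 and 15.1, and that of Actg2 16.9 to 21.8 and 19.5. All 3 saline spots there were at background. In WT bladders the levels of Smtn were 14.0 to 31.1 and 23.0. Those of Cnn1 were 13.1 to 22.6 and 25.1, and those of Actg2 14.0 to 20.6 and 20.9. These 3 genes were among the 22 of 43 contractile probes for which the PAR1-/- array of SP at 4 h was the brightest array, and it also had the largest summed intensity.

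The striated muscle genes gave the brightest spots. Myom2 measured 508 and 84 after LPS, 385 and 349 after SP and 95 after saline in PAR1-/- bladders. In WT bladders it measured 86 and 435 after LPS, 213 and 102 after SP and 167 after saline. The genotypes ran in opposite time order after LPS, with the 4 h pool high in PAR1-/- and the 24 h pool high in WT.

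Normalized Myom2 levels were 342 and 68.7 after LPS, 135 and 228 after SP and 295 after saline in PAR1-/- bladders, and 82.0 and 600 after LPS, 103 and 259 after SP and 471 after saline in WT bladders. It was lower than saline by more than 3-fold in PAR1-/- pools after LPS at 24 h (0.233-fold) and in WT pools after LPS at 4 h (0.174-fold) and SP at 4 h (0.218-fold). Without normalization these ratios were 0.884, 0.515 and 1.28. Between genotypes, Myom2 was 4.17-fold higher in PAR1-/- than in WT bladders after LPS at 4 h and 0.115-fold as high after LPS at 24 h, and both differences kept their side of 3-fold without normalization (5.91-fold and 0.193-fold).

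Tnnt3, the tropomyosin-binding troponin of fast skeletal muscle, was brighter in PAR1-/- bladders after every challenge. Its intensity was 57 and 114 after LPS, 193 and 74 after SP and 27 after saline in PAR1-/- bladders, against 27 and 15, 44 and 19, and 28 in WT bladders. The saline pools were thus alike, and in intensity the 4 challenged PAR1-/- pools lay above all 5 WT pools. On the normalized scale the levels were 47.6 and 89.3 for LPS and 73.8 and 57.0 for SP in PAR1-/- bladders, against 60.4 after saline. They thus lay on both sides of the saline levels of PAR1-/- and of WT bladders (57.0 in WT). In WT bladders Tnnt3 was at most 0.275-fold of saline after LPS at 24 h, where the spot held the array's common value of 15, and without normalization this bound was 0.592-fold.

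Tnni2 gave 130 and 195 after LPS, 256 and 160 after SP and 79 after saline in PAR1-/- bladders, and 103 and 232, 284 and 97, and 84 in WT bladders. Its normalized level was below saline in all 4 challenged PAR1-/- pools, between 0.404-fold and 0.606-fold, but without normalization it was above saline in all 4, between 1.65-fold and 3.24-fold. Tmod4, which caps the pointed ends of thin filaments in skeletal muscle, gave 117 and 58 after LPS, 177 and 73 after SP and 27 after saline in PAR1-/- bladders, and 46 and 45, 54 and 22, and 26 in WT bladders. No Tnni2 or Tmod4 ratio to saline passed 3-fold after normalization.

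Myl2, the regulatory light chain of cardiac ventricular and slow skeletal muscle, gave 59 and 43 after LPS, 108 and 52 after SP and 13 after saline in PAR1-/- bladders, and 57 and 37, 96 and 19, and 22 in WT bladders. In the PAR1-/- pools its normalized ratio to saline was 2.04 and 1.61 with LPS and 1.85 and 1.73 with SP. Tnnc2, the calcium-binding troponin of fast skeletal muscle, gave 29 and 37 after LPS, 61 and 42 after SP and 11 after saline in PAR1-/- bladders, and 34 and 15, 26 and 8, and 10 in WT bladders. Both genes were therefore dimmest at saline in PAR1-/- bladders.

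Cardiac and slow troponin T showed the reverse of Tnnt3 at 4 h. Tnnt2 (cardiac) gave 19 and 13 after LPS, 23 and 14 after SP and 9 after saline in PAR1-/- bladders, against 54 and 15, 43 and 11, and 12 in WT bladders. Tnnt1 (slow skeletal) gave 14 and 19, 25 and 18, and 8 in PAR1-/- bladders, against 40 and 15, 36 and 12, and 9 in WT bladders. Dystrophin (Dmd), which links actin to the muscle membrane, gave 15 and 19, 37 and 24, and 11 in PAR1-/- bladders, against 13 and 15, 34 and 11, and 11 in WT bladders. The 8 other striated muscle probes (Myom1, Myh6, Actn3, Mybph, Mylpf, Tnnc1, Mybpc3 and Tnni3) lay between 8 and 26 on every array.

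**Figure D3:**
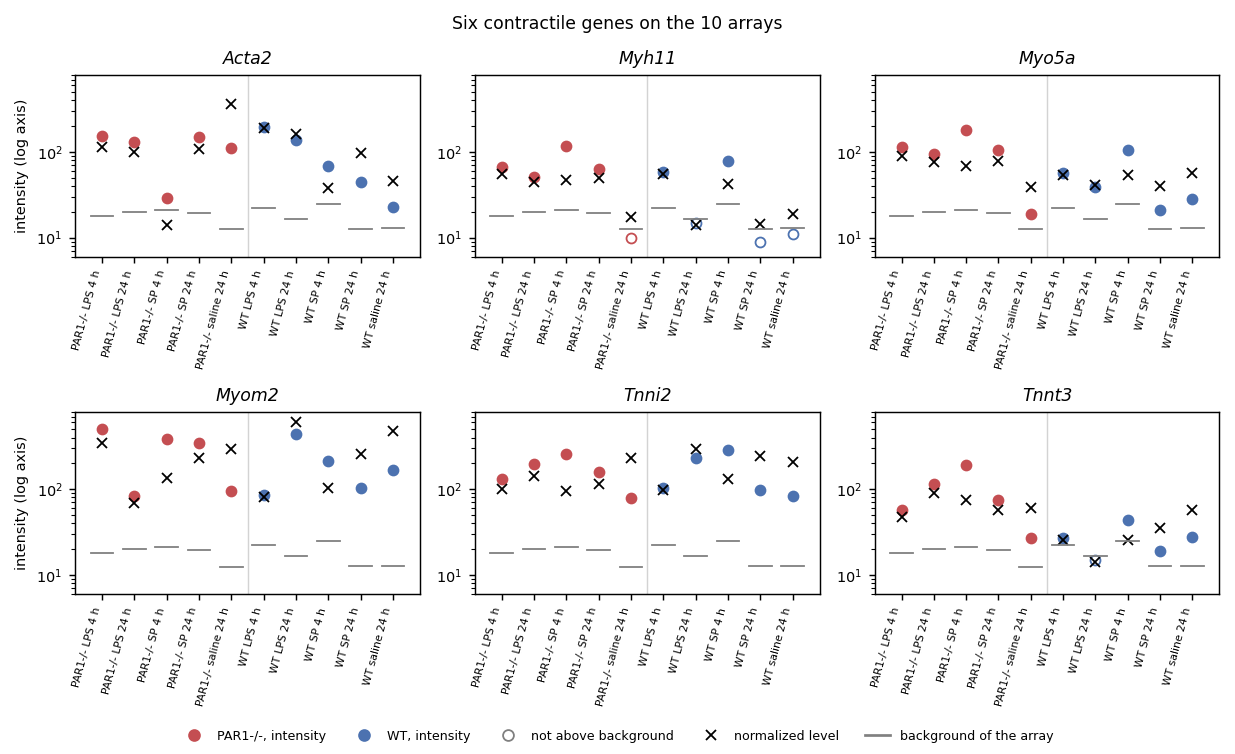
Intensity (circles, log axis) and normalized level (crosses) of 6 contractile genes on the 10 arrays, 1 pool each, with PAR1-/- in red at the left and WT in blue at the right. Open circles lie at or under the background of their array (grey line). Challenged Tnnt3 circles are higher in PAR1-/- (57 to 193) than in WT (15 to 44), and Myh11 is open on both saline arrays.

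Among the unconventional myosins, Myo5a, which carries organelles along actin, was above background on all 10 arrays. It gave 114 and 94 after LPS, 178 and 105 after SP and 19 after saline in PAR1-/- bladders, and 57 and 39 after LPS, 104 and 21 after SP and 28 after saline in WT bladders. On the normalized scale it was above saline in all 4 challenged PAR1-/- pools, at 2.29-fold and 1.95-fold after LPS and 1.77-fold and 2.01-fold after SP. In the 4 WT pools it was below saline, at 0.946-fold and 0.714-fold after LPS and 0.953-fold and 0.701-fold after SP. The direction in WT depended on the scaling: without normalization the WT ratios were 2.04 and 1.39 for LPS and 3.71 and 0.750 for SP, so that 3 of 4 lay above saline, and the PAR1-/- ratios lay between 4.95 and 9.37. None of the 8 normalized ratios passed 3-fold, and the difference between the genotypes' ratios was not tested.

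Myo1a, a myosin of the intestinal brush border, was above background on 1 array only. In WT bladders it gave 85 after LPS at 4 h, against 15 after LPS at 24 h, 16 and 7 after SP and 9 after saline. PAR1-/- bladders gave 10 and 14 after LPS, 17 and 12 after SP and 9 after saline. The WT spot of LPS at 4 h was at least 3.58-fold higher than saline (at least 2.81-fold with a shift of each array), and the PAR1-/- pool under the same condition was at most 0.206-fold of it.

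Myo7a, known for its part in inner ear hair cells, gave 78 and 47 after LPS, 96 and 62 after SP and 18 after saline in PAR1-/- bladders, and 63 and 15, 95 and 15, and 22 in WT bladders. Myo1f, a myosin of leukocytes, gave 34 and 43, 46 and 42, and 14 in PAR1-/- bladders, and 30 and 15, 40 and 19, and 17 in WT bladders. The intensities of the leukocyte markers fixed beside it (7 probes), not normalized, summed to 88 to 161 on the challenged arrays and 75 to 81 on the saline arrays. Over all probes these sums were 73225 to 273798 and 69025 to 71927. S100a9 was above background on 6 arrays, Itgb2 on 5, Ptprc on 4, Cd3g on 3 and S100a8, Cd3e and Cd68 on 0. The part of these markers in the Myo1f values was not tested.

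Myo6, the myosin that moves towards the pointed end of actin filaments, lay between 10 and 27 in PAR1-/- bladders and between 12 and 28 in WT bladders. Myo9b lay between 10 and 29 in PAR1-/- bladders and between 9 and 30 in WT bladders. Myo15 and Myo1c did not exceed 24 on any array.

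The cytoplasmic and non-muscle genes were weak for transcripts held to be abundant. The brightest of the 3 probes for Actb, the cytoplasmic beta actin, gave 63 and 29 after LPS, 104 and 32 after SP and 24 after saline in PAR1-/- bladders, and 43 and 31, 40 and 18, and 22 in WT bladders. The 2 other Actb probes were above background on 1 array each, did not exceed 19, and correlated with the first at r = 0.16 and 0.26 over the 10 arrays, given here as a description. Probes for the same transcript thus disagreed, and no direction was drawn for Actb.

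Actg1, the cytoplasmic gamma actin, gave 18 and 19 after LPS, 25 and 23 after SP and 12 after saline in PAR1-/- bladders, against 28 and 15, 39 and 17, and 14 in WT bladders. Vim, the intermediate filament protein of mesenchymal cells, gave 36 and 46 after LPS, 66 and 38 after SP and 26 after saline in PAR1-/- bladders, against 59 and 29, 60 and 13, and 21 in WT bladders. Myl6, the essential light chain of smooth and non-muscle myosin, gave 28 and 44 after LPS, 102 and 39 after SP and 18 after saline in PAR1-/- bladders, against 27 and 15, 66 and 20, and 19 in WT bladders. The normalized Vim level was below saline in all 4 challenged PAR1-/- pools, between 0.501-fold and 0.712-fold, and above it in 1 of the 4 WT pools. Without normalization Vim was instead above saline in all 4 PAR1-/- pools, between 1.38-fold and 2.54-fold, and in 3 of the 4 WT pools.

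Tpm3, a tropomyosin of slow muscle and of non-muscle cells, gave 14 and 15 after LPS, 17 and 12 after SP and 23 after saline in PAR1-/- bladders, against 12 and 15, 19 and 17, and 8 in WT bladders. It was at most 0.214-fold of saline after SP at 4 h in PAR1-/- bladders, where the saline spot held 23 against a background threshold of 12.5. Without normalization the same bound was 0.911-fold. Tagln3, Tmod3 and Tmod2 lay between 8 and 33 on every array, as did Cnn2.

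Actb, Actg1, Myo5a and Tagln are on the list that the study chose on these same arrays as raised by LPS or SP in WT but not in PAR1-/- bladders, so the list is no independent evidence of a direction. After robust regression or quantile normalization as run here, 0 of these 4 genes passed 3-fold in any of the 8 comparisons with saline. The details of these steps may differ from those of the study. With a shift of each array 1 did, a dim Actb probe at most 0.287-fold of saline in WT bladders with SP at 4 h. Without normalization 3 of them did, Myo5a in the 4 PAR1-/- comparisons and at 3.71-fold in WT bladders with SP at 4 h, Tagln in PAR1-/- bladders with SP at both times (at least 4.31-fold and 3.51-fold) and Actb in PAR1-/- bladders with SP at 4 h (4.33-fold). A further entry of that list pairs the names Myl6b and myo1a under the gene ID of Myl6b and was not counted here, and the probe named Myo1a carries another gene ID. Apart from the arrays, the study reports raised Actb transcription in other WT mice after activating peptides of PAR1 or of the related receptor PAR2. That assay was Q-PCR of chromatin bound by RNA polymerase II, without LPS, SP or PAR1-/- mice. Actg1, Myo5a and Tagln are not among its reported genes.

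Over the 43 probes, differences beyond 3-fold from saline were few. In PAR1-/- bladders, 1 probe passed after LPS at 4 h (Acta2, lower), where 1.08% of all 4900 probes did so, and 2 passed after LPS at 24 h (Acta2 and Myom2, lower), where 0.918% of all did. After SP, 2 passed at 4 h (Acta2 and Tpm3, lower, against 1.18% of all) and 1 at 24 h (Acta2, lower, against 1.10%). In WT bladders, 3 passed after LPS at 4 h (Acta2 and Myo1a higher, Myom2 lower, against 2.88% of all) and 2 after LPS at 24 h (Acta2 higher, Tnnt3 lower, against 1.02%). SP gave 1 at 4 h (Myom2, lower, against 2.06%) and 0 at 24 h (against 0.469%). A single probe is 2.33% of the 43, so shares of this size differ from the background by a probe or so. In all, 5 of the 43 probes (11.6%) passed in at least 1 of the 8 comparisons, against 311 of 4900 (6.35%).

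**Figure D4:**
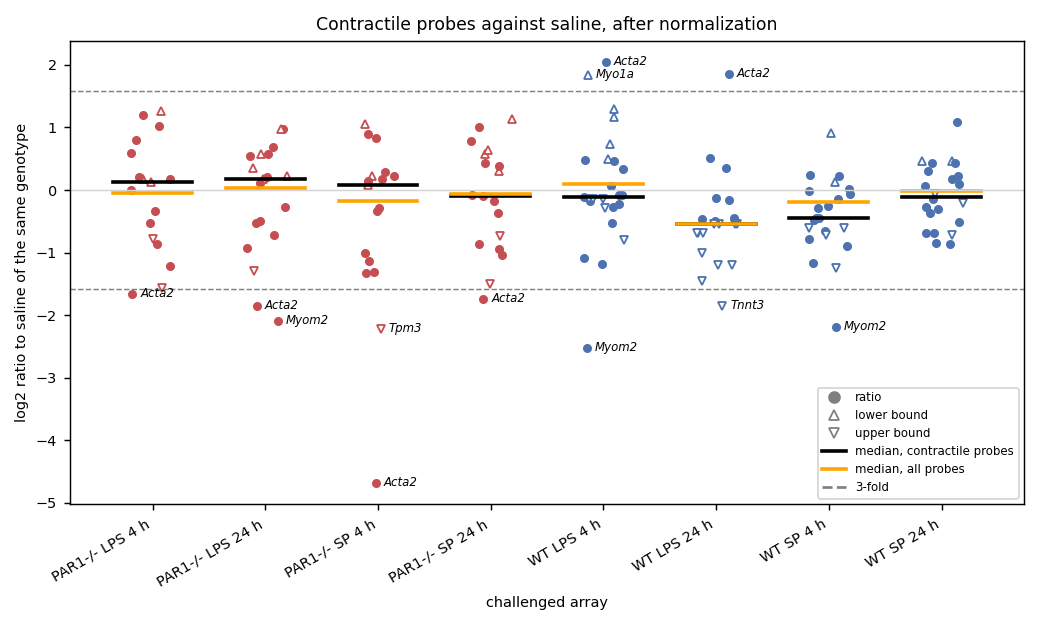
Log2 ratio of each contractile probe to saline of the same genotype (vertical axis) on the 8 challenged arrays (PAR1-/- left, WT right), after normalization. Circles are ratios, triangles bounds, dashed lines 3-fold, and bars the medians of the contractile probes (black) and of all probes (orange), which lie within 0.26 of each other in every comparison. Named points are those beyond 3-fold.

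The list as a whole stayed near the array as a whole. Its median log2 ratio to saline in PAR1-/- bladders was 0.13 and 0.18 after LPS and 0.08 and -0.09 after SP, against -0.05, 0.03, -0.17 and -0.06 over all probes with a ratio. In WT bladders it was -0.11 and -0.55 after LPS and -0.45 and -0.11 after SP, against 0.10, -0.55, -0.19 and -0.02 over all probes. The shared value of -0.55 for LPS at 24 h is a bound, set by the normalized background threshold of the challenged array (15.7) and the dimmest saline spots above background (23.0). The number of contractile probes with a ratio was 17 to 19 in PAR1-/- bladders and 20 to 25 in WT bladders.

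By sub-list, the unconventional myosins had the highest medians in PAR1-/- bladders after LPS, 0.80 at 4 h and 0.55 at 24 h, each over 3 probes. The cytoplasmic and non-muscle genes had medians of -0.70 and -0.49 after LPS and -0.64 and -0.91 after SP there, over 4 or 5 probes. Without normalization the medians of the cytoplasmic and non-muscle genes turned to between 0.55 and 1.30, while those of the unconventional myosins stayed above 0. These are descriptions of small lists, and no list was tested.

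Set directly against each other, the genotypes differed by more than 3-fold in few contractile probes. After saline, 1 probe passed (Acta2, 8.03-fold higher in PAR1-/- bladders), where 0.490% of all probes did. After LPS, 2 passed at 4 h (Myom2 higher and Myo1a lower in PAR1-/-, against 1.94% of all) and 2 at 24 h (Tnnt3, at least 5.70-fold higher, and Myom2 lower in PAR1-/-, against 3.12%). After SP, 0 passed at 4 h and 0 at 24 h, where 1.61% and 1.53% of all probes did. The Acta2 difference at saline was 4.87-fold without normalization. For the 12 contractile probes that both saline arrays measured above background, the SD of the log2 difference was 0.99, and 0.43 without Acta2, against 0.46 over all 1130 such probes.

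To use more than 1 array per side, the 5 conditions were taken as 5 pairs of PAR1-/- and WT pools in limma, for the 24 contractile probes among 2015 probes above background on at least 4 arrays. These pools are not replicates of a condition, and the p-values measure the spread between conditions. For the genotype, 0 of the 24 contractile probes and 0 (0%) of all 2015 passed a Benjamini-Hochberg adjusted p of 0.05 in limma, while 2 contractile probes and 187 probes in all had an unadjusted p under 0.05. Tnnt3 came nearest, at 1.15 ± 0.31 higher in PAR1-/- on the log2 scale (SE, 5 pairs, higher in 5 of 5, limma adjusted p = 0.304). Its saline pair differed by only 0.08 after normalization, and in intensity it ran the other way (27 in PAR1-/-, 28 in WT). Its largest pair, 2.51 for LPS at 24 h, is a bound set by the background threshold of the WT array. Tmod4 was 0.59 ± 0.25 higher (SE, also in 5 of 5 pairs, limma adjusted p = 0.493). Acta2 differed by 0.07 ± 0.47 (limma adjusted p = 0.985), since the saline pair ran opposite to 3 of the 4 challenged pairs.

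**Figure D5:**
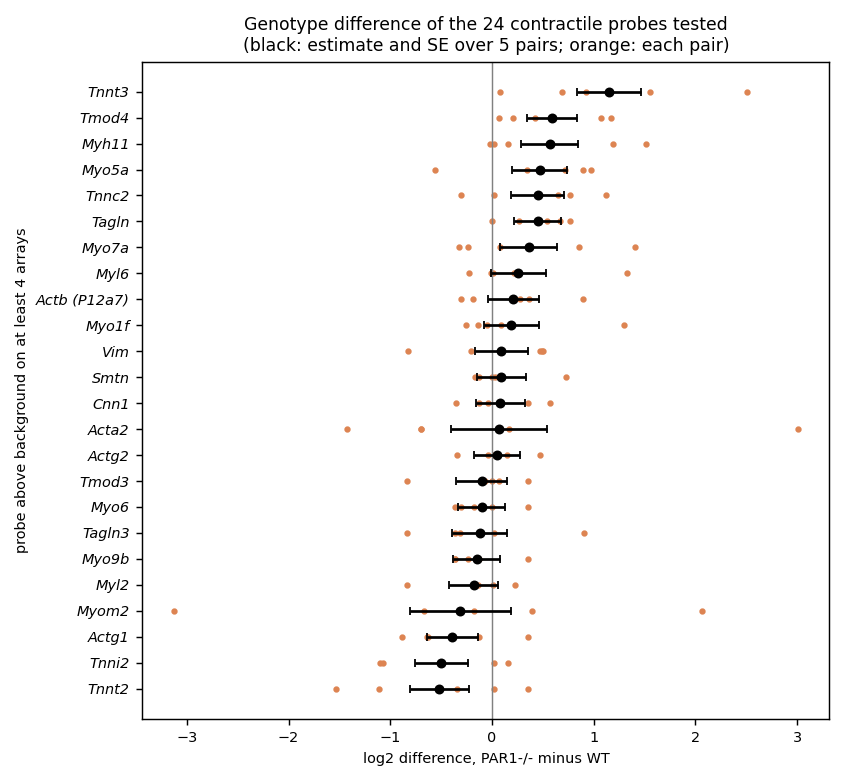
Log2 difference between PAR1-/- and WT (horizontal axis) for the 24 contractile probes tested (rows), as estimate and SE over 5 pairs (black) and as each pair (orange). All 5 Tnnt3 and all 5 Tmod4 points lie right of 0. The lowest Tnnt3 point is saline (0.08) and the highest is LPS at 24 h (2.51, a bound). A pair with both spots at background shows the distance between the thresholds of the arrays, as at 0.35 for LPS at 24 h.

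Between the agents, Acta2 was the only contractile probe of 24 to pass, and it rose with LPS relative to SP. Over the 4 pairs of the same genotype and time its normalized level was 2.84-fold higher after LPS than after SP (1.51 ± 0.32 on the log2 scale, SE, limma adjusted p = 0.00221), where 7 of 2015 probes (0.347%) passed. The pairs were uneven. Acta2 was 8.21-fold higher after LPS in PAR1-/- bladders at 4 h and 0.933-fold at 24 h, and 4.98-fold at 4 h and 1.71-fold at 24 h in WT bladders, so that 3 of 4 pairs were higher. The SD over the pairs was 1.43, and the limma SE is smaller than this implies because here limma gave all probes 1 common variance. An exact two-sided sign-flip test over the 4 pairs gave p = 0.25, with 0.125 the smallest value possible. The call was lost when any 1 of 3 pairs was left out (limma adjusted p = 0.366 to 1.00), without normalization (0.956) and with quantile normalization (0.991). SP also differed in dose between genotypes on the labels.

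Over time, 12 of 2015 probes (0.596%) passed for 24 h against 4 h in limma and 0 of the 24 contractile probes did. At an unadjusted limma p under 0.05 were 4 of the 24 contractile probes, against 140 of the 2015 (6.95%). The 4 contractile probes were Acta2 (0.98 ± 0.37 higher at 24 h, log2, SE, limma adjusted p = 0.341), Tnni2 (0.81 ± 0.37 higher, limma adjusted p = 0.545), Myo7a (-0.79 ± 0.37, limma adjusted p = 0.600) and Myh11 (-0.75 ± 0.37, limma adjusted p = 0.666). As between the agents, limma gave all probes 1 common variance here. The SE of 0.37 was therefore the same for all 24 and does not measure each probe's own spread over the pairs. For challenge against saline, with 8 arrays against 2, 1 of 2015 probes (0.0496%) passed and 0 of the 24 contractile probes did. At an unadjusted limma p under 0.05 were 0 of the 24, against 186 of the 2015 (9.23%). The median log2 difference was -0.25 over the contractile probes and -0.18 over all probes tested.

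Of 58 listed regulators of contraction and actin assembly, 36 were on the array, 3 of them above background on all 10 arrays. Beyond 3-fold of saline, 1 was higher and 2 were lower in at least 1 comparison (8.33% of the 36 together, against 6.35% of all probes), and 0 of the 15 tested in limma passed. Pfn1 (profilin, which feeds actin monomers to growing filaments) was 5.08-fold higher than saline after LPS and 3.85-fold higher after SP in WT bladders at 4 h, against 1.52-fold and 0.996-fold in PAR1-/- bladders at 4 h. Without normalization the PAR1-/- ratios were 4.43-fold for LPS and 5.75-fold for SP, beside 9.60-fold and 14.5-fold in WT. Its intensity was 28 on the PAR1-/- saline array and 15 on the WT saline array. Rdx (radixin, which links actin to the membrane) was at most 0.328-fold of saline in the WT pool of SP at 24 h, and Vcl (vinculin, of adhesion sites) at most 0.330-fold in that of LPS at 24 h, each with its challenged spot at background. Without normalization these bounds were 0.395-fold (Rdx) and 0.691-fold (Vcl). In the PAR1-/- pool of SP at 24 h, Rdx was likewise at background, at most 0.372-fold of saline (0.888-fold without normalization). In the PAR1-/- pool of LPS at 24 h, Vcl stood at 0.475-fold (1.00-fold without normalization).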

How the data were processed

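Spots on the 10 arrays had been quantified by the authors with BD AtlasImage software. The deposited values are scores: over the 10 arrays, log2 of each probe's score has mean 0 and the same SD, which removes the probe's level and range. Because log2 of the score is linear in log2 of the intensity, the whole-number intensities were searched for and recovered for 97.4% of 5030 probes. The search was tested on simulated data. Gene symbols came from the platform annotation (392 probes unnamed, 5 with several genes), and all 43 Entrez IDs matched RefSeq. The methods' regression was run with MASS 7.3.60.0.1 in R 4.3.3 on 532 probes above background on all arrays. Ratios beyond 3-fold, a criterion of the methods, were counted over 4900 probes. limma 3.58.1 was run on 2015 probes, with condition (5 pairs), genotype and agent (4 pairs), genotype and time (4 pairs) or genotype as a block.

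Values on all arrays are given for genes on the study's list (Myl6b had no member probe), above background on all 10 arrays, beyond 3-fold, past a limma threshold, or among the 4 brightest others of their sub-list. The members, lists and tests were chosen with earlier results of these data known. Alternatives were other scalings, background thresholds of 2 and 5 SD, 2-fold, both saline arrays as reference, other filters, the deposited scores and leaving out arrays. The number of pools limits the precision, and no count or depth lies behind these intensities.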

Additional observations from a re-analysis of the deposited data

Results flagged for a closer look

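Myo5a was singled out because its normalized ratios to saline ran in opposite directions in the 2 genotypes, with all 4 challenged pools above saline in PAR1-/- bladders (median 0.99 on the log2 scale) and all 4 below saline in WT bladders (median -0.28). The medians differ by 1.27, and this difference was not tested. The Myo5a intensity was 19 on the PAR1-/- saline array and 28 on the WT saline array, each of which enters 4 of the 8 ratios. Without normalization the 4 WT ratios were 2.04, 1.39, 3.71 and 0.750 (LPS at 4 and 24 h, SP at 4 and 24 h), so that 3 of them lay above saline, as did all 4 PAR1-/- ratios.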

How the results depend on the processing

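Scaling mattered most. Without normalization the counts of contractile probes beyond 3-fold of saline in PAR1-/- bladders became 6 (LPS 4 h), 5 (LPS 24 h), 17 (SP 4 h) and 8 (SP 24 h), and in WT bladders 5 (LPS 4 h), 1 (LPS 24 h) and 8 (SP 4 h). Their median log2 ratios became 0.94, 1.13, 1.63 and 1.28 in PAR1-/- bladders and 1.01, 0.48 and 1.44 in WT bladders in the same order, since the challenged arrays were brighter. Probes beyond 3-fold between genotypes became 2 (SP 4 h) and 9 (SP 24 h). With a shift only, WT SP at 4 h gave 2 probes (median -0.96), PAR1-/- SP at 4 h a median of -0.55, and 2 probes differed between genotypes after SP at 4 h. A background of 2 SD gave 2 probes each for PAR1-/- LPS at 4 h and SP at 24 h. At 2-fold the counts were 6 (LPS 4 h), 6 (SP 4 h) and 5 (SP 24 h) in PAR1-/- bladders and 7, 6, 3 and 1 (LPS 4 h, LPS 24 h, SP 4 h, SP 24 h) in WT bladders, and between genotypes 5 (LPS 4 h), 8 (LPS 24 h), 4 (SP 4 h), 2 (SP 24 h) and 2 (saline). Against the mean of both saline arrays, PAR1-/- bladders gave 0 (LPS 4 h), 1 (LPS 24 h), 1 (SP 4 h) and 0 (SP 24 h), and WT bladders 1 (LPS 24 h) and 2 (SP 4 h).

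The limma call of Acta2 between LPS and SP (adjusted p = 0.00221) held with a shift only (0.00242), 2 SD (0.00333), 5 SD (7.2e-04), all probes above background on at least 1 array (0.00133) and trend with robust moderation (0.00170). The count of contractile probes was 0 without normalization (Acta2 limma adjusted p = 0.956), with quantile normalization (0.991), with only probes above background on all arrays (0.636), with values under background kept (0.673), with the deposited scores (0.853) and without the WT array of LPS at 24 h (0.772). Leaving out 1 pair or condition at a time gave 0 to 1 probes for the agent, 0 to 1 for the genotype (Tnnt3 without LPS at 4 h, limma adjusted p = 0.0406), 0 to 1 for time (Myom2 without PAR1-/- LPS, limma adjusted p = 0.0467) and 0 for challenge. Acta2 kept its direction under each of these settings. The genotype ratios per condition, and 2 and 5 SD in limma, were added after the data were seen.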
